A study of Mus musculus with 9 samples.

Results

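The genes described here are the 6 caspase genes *Casp1*, *Casp2*, *Casp4*, *Casp6*, *Casp8* and *Casp9*, the apoptosome scaffold gene *Apaf1* and the caspase inhibitor gene *Xiap*. They were found by symbol in a table of 54347 genes, and all 8 were among the 13082 genes with enough reads to be tested. The data are poly-A RNA sequencing of 3 myeloid lines of the mouse, with 9 libraries, 3 per line. Hox-WT is a wild-type progenitor line and Hox-URE a UREd/d progenitor line, both made from c-Kit+ bone marrow progenitors by expressing Hoxb8 fused to an estrogen receptor domain, which blocks differentiation while estradiol is present. URE-AML, which the sample labels call B22, is a UREd/d line of leukemic blasts from a diseased mouse of that genotype. UREd/d means that both copies of the upstream regulatory element of *Spi1*, which encodes the myeloid transcription factor PU.1, were deleted. All lines were grown in the same medium with IL-3, IL-6, SCF and estradiol. The study's UREd/d mice and their littermates were on a C57BL/6 background, and the age it gives for them is not tied to the donors of these lines.

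Each genotype and stage is 1 line from 1 mouse, so genotype, animal and clone cannot be told apart, and p measures only the spread between libraries of a line, which may be technical. Total counts were 20331064 to 28588718 per library. *Spi1* stood at 96.5 to 110 CPM (counts scaled to a common library size by library total and TMM factor) in Hox-WT, had 1, 1 and 0 counts in Hox-URE and stood at 2.5 to 6.35 CPM in URE-AML. *Hoxb8* had 0 counts in every URE-AML library and stood at 61.6 to 141 CPM in the progenitor lines. *Kit*, the progenitor receptor, was at 162 to 192 CPM in Hox-WT, 35.4 to 50.7 CPM in Hox-URE and 92.7 to 99.6 CPM in URE-AML. Of 7 monocyte and macrophage markers, Hox-URE had 5 called lower relative to Hox-WT and 1 higher, *Ccr2* (840 to 938 CPM versus 10.6 to 14.4 CPM). In URE-AML 3 were called lower than in Hox-WT and 1 higher, *Cd14*. *Csf1r*, the macrophage growth factor receptor, had 13 to 28 counts in Hox-WT, 0 in every Hox-URE library and at most 1 in URE-AML.

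Caspases are cysteine proteases that lie dormant in the cell until they are brought together on a scaffold or cut by another caspase. In the mitochondrial route of apoptosis, cytochrome c binds Apaf1, which assembles into the apoptosome and activates caspase-9, and caspase-9 then starts the cleavage of effector caspases. Death receptors activate caspase-8 instead, the PIDDosome activates caspase-2, and inflammasomes activate caspase-1, whose relative caspase-4 (caspase-11 in the mouse) senses bacterial lipopolysaccharide. Xiap binds and blocks caspase-9 and some, not all, effector caspases. Caspase activity is set mainly by protein cleavage, which RNA levels do not show, and myeloid cells are known for strong expression of the inflammatory caspases.

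A gene is described as called where the edgeR quasi-likelihood test gave an adjusted p (Benjamini-Hochberg, all tested genes) below 0.05 together with more than a 1.5-fold difference. For Hox-URE versus Hox-WT, 2 of the 8 genes were called lower, *Casp1* and *Casp6*, and 0 higher, beside 37.2% of all tested genes called, 21.3% higher and 15.9% lower. For URE-AML versus Hox-WT, 1 was called higher (*Casp1*) and 1 lower (*Casp6*), beside 43.2% of all genes called, 23% higher and 20.2% lower. For URE-AML versus Hox-URE, 1 was called higher (*Casp1*) and 0 lower, beside 42.7% of all genes called, 20.3% higher and 22.4% lower. With only 8 genes, 1 call moves these shares far, so no difference from all tested genes is read in any of the 3 comparisons. The median log2 fold change of the 8 was -0.20, -0.16 and 0.13 in that order, beside 0.00025, 0.0016 and 0 for all tested genes. The 3 comparisons share libraries, so a gene's values in one are tied to its values in the others.

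**Figure D1:**
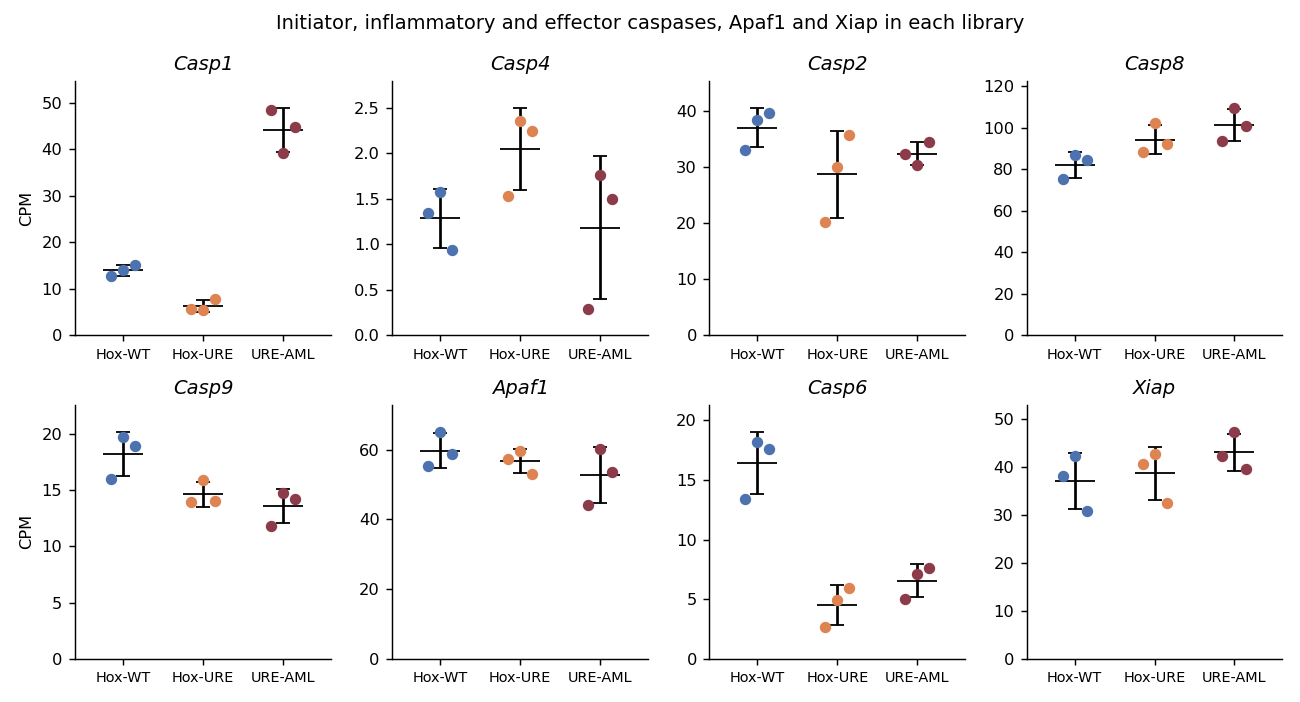
CPM of each gene in each library, with the mean (horizontal line) and SD (bars) of the 3 libraries of a line; every vertical axis starts at 0. *Casp1* separates all 3 lines, *Casp6* separates Hox-WT from both UREd/d lines, and the points of *Apaf1*, *Xiap* and *Casp2* overlap.

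**Figure D2:**
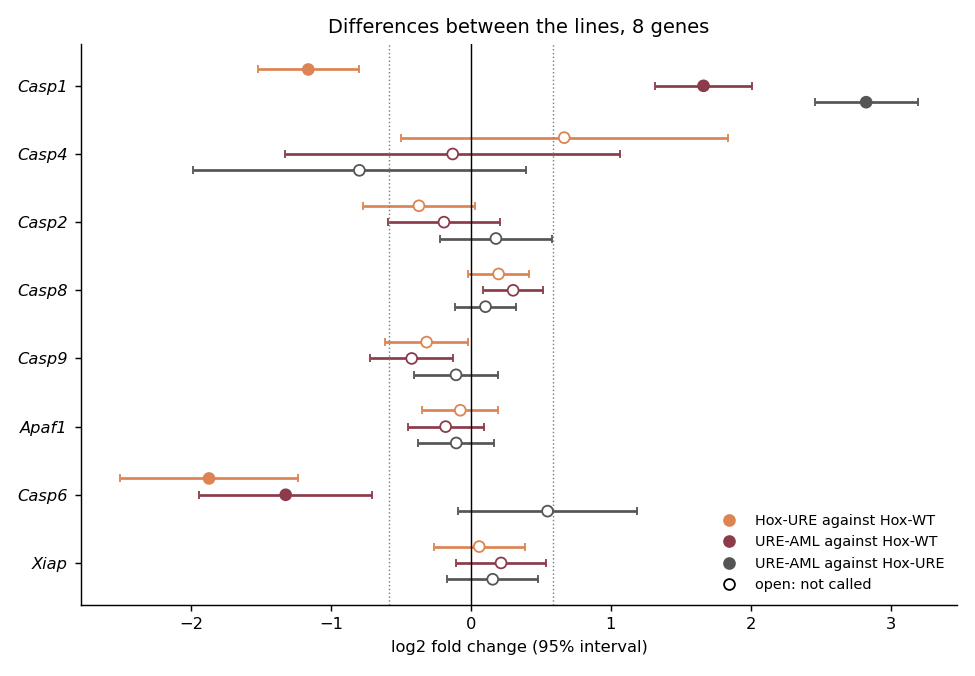
Log2 fold change of each gene in the 3 comparisons with its 95% interval; filled points were called, and the dotted lines mark a fold change of 1.5. Only *Casp1* and *Casp6* have filled points, and *Casp4* has the widest intervals.

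The 2 called genes and *Casp2* carry, in the 250 bases before the RefSeq start, a match to the core that PU.1 binds (GAGGAA, read on both strands), so these windows are shown (RefSeq, GRCm38.p6; 5′ to 3′ on the strand of the gene, with the PU.1 core in capitals). They are chr9:5298267-5298516 for *Casp1*, chr3:129901165-129901414 for *Casp6* and chr6:42264735-42264984 for *Casp2*, all on the + strand.
Casp1: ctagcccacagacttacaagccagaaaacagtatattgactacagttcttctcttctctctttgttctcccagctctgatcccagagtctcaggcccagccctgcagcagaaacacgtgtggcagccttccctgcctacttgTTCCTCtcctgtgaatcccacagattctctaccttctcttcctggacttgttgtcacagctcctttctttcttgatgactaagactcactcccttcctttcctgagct
Casp6: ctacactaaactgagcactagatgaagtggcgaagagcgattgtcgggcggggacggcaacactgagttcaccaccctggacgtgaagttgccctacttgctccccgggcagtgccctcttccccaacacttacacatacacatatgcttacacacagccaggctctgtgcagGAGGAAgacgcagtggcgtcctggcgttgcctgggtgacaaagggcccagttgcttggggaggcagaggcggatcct
Casp2: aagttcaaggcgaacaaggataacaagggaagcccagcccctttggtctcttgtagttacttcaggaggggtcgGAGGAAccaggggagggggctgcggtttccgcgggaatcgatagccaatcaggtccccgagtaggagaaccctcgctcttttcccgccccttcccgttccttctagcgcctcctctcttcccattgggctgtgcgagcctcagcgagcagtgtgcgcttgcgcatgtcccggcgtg
The match begins 108 bases before the start in *Casp1*, where it reads TTCCTC because the core lies on the other strand, 77 bases before it in *Casp6* and 176 bases before it in *Casp2*. Of the 8 genes, 4 had a match in at least 1 listed promoter, the fourth being *Xiap*, which has 3 listed promoters and matches in 2 of them. Over 32851 mouse promoters of the same length the share with a match was 23.3%. The RUNX core TGTGGT, present in 14.0% of promoters, occurred in *Casp8* (first base 164 bases before the start) and in no other of the 8. The STAT palindrome TTCNNNGAA (7.02% of promoters) and the interferon-stimulated response element (2.98%) had no match in these windows, and no matches overlapped. *Casp2*, which holds a match, was not called in any comparison. These are matches of letters and show no binding. The window of *Casp8* (chr1:58802252-58802501) and the 3 of *Xiap* lie inside the annotated genes, past the gene starts given below.

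The windows differed in base composition. The *Casp1* window held 1 CpG and 49.2% G and C. That of *Casp8*, which lies inside the annotated gene, held 5 CpG and 39.6%, beside medians of 6 and 52.4% over all promoters. The other windows shown above held 11 CpG (*Casp6*) and 17 (*Casp2*). *Casp9* with 25 CpG and *Apaf1* with 42 and 75.6% G and C lay at the CpG-rich end.

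*Casp1* (ENSMUSG00000025888, GRCm38 chr9:5298517-5307265, + strand) encodes the protease that matures interleukin-1β and interleukin-18 and opens gasdermin D. Its level was 12.7, 14.0 and 15.1 CPM in Hox-WT libraries 1 to 3, 5.53, 5.43 and 7.81 CPM in Hox-URE, and 48.4, 39.2 and 44.7 CPM in URE-AML. Every Hox-URE library lay below every Hox-WT library, and every URE-AML library lay above both. In Hox-URE it was 2.24-fold below Hox-WT (log2 fold change -1.16 ± 0.16 SE, adjusted p = 0.000189). In URE-AML it was 3.16-fold higher than in Hox-WT (1.66 ± 0.15, adjusted p = 8.07e-06) and 7.08-fold higher than in Hox-URE (2.82 ± 0.16, adjusted p = 2.93e-07). The 2 lines that carry the same UREd/d genotype therefore stood at opposite ends of the range of *Casp1*.

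Neutrophil markers took the same order among the lines as *Casp1*. Their summed level over 8 genes was 17.7 to 24.1 CPM in Hox-URE, 3506 to 6292 CPM in Hox-WT and 7866 to 15755 CPM in URE-AML. All 8 were called lower in Hox-URE than Hox-WT, with *S100a9* and *Ltf* at 0 counts in Hox-URE, while in URE-AML versus Hox-WT 6 were called higher and 1 lower (*Mpo*, myeloperoxidase). *Cd14* of the monocyte list took that order too, at 5.09 to 5.46 CPM in Hox-URE, 47.3 to 84.9 CPM in Hox-WT and 107 to 304 CPM in URE-AML, whereas the summed monocyte list did not (846 to 946, 348 to 380 and 123 to 332 CPM). The part of these markers in the result on *Casp1* was not tested, and in bulk RNA fewer expressing cells and less RNA per cell cannot be told apart.

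*Casp4* (ENSMUSG00000033538, chr9:5308828-5336783, + strand) starts 1.56 kb downstream of *Casp1* on the same strand and was low. It stood at 1.35, 1.57 and 0.934 CPM in Hox-WT, 1.53, 2.36 and 2.25 CPM in Hox-URE, and 0.283, 1.76 and 1.5 CPM in URE-AML. These are 7 to 57 counts per library, and the lowest, URE-AML library 1 with 7 counts, was far below the other libraries of its line. The libraries of the lines overlapped in every comparison. The log2 fold change was 0.67 ± 0.52 in Hox-URE versus Hox-WT (adjusted p = 0.310, 95% interval -0.50 to 1.84) and -0.13 ± 0.54 in URE-AML versus Hox-WT (adjusted p = 0.858, interval -1.33 to 1.07). Without URE-AML library 1 the latter turned to 0.34 (adjusted p = 0.447), so its direction was not settled. Another caspase gene of this cluster, *Casp12*, was not tested, with at most 16 counts in any library and 0 in all 3 of Hox-WT.

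Of 12 listed genes of inflammasomes and related pathways, not all of which act around caspase-1, 10 were tested. Against Hox-WT, 7 were called in Hox-URE (1 higher, 6 lower) and 8 in URE-AML (3 higher, 5 lower). Between the UREd/d lines 8 were called, 6 of them higher in URE-AML and 2 lower. *Pycard*, the adaptor that joins sensors to caspase-1, stood at 42.0 to 42.4 CPM in Hox-WT, 29.0 to 35.2 CPM in Hox-URE and 150 to 168 CPM in URE-AML. That order was the order of *Casp1*, with *Pycard* called higher in URE-AML than in Hox-WT (1.92 ± 0.09, adjusted p = 6.77e-08) and short of the fold threshold in Hox-URE (-0.38 ± 0.09, adjusted p = 0.00556).

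*Gsdmd*, the pore-forming substrate of caspase-1 and caspase-11, had another order. It was at 36.4 to 42.5 CPM in Hox-WT, 2.55 to 2.94 CPM in Hox-URE and 14.9 to 26.6 CPM in URE-AML. It was thus called lower than in Hox-WT in both UREd/d lines, by -3.88 ± 0.22 in Hox-URE (adjusted p = 3.86e-07) and -0.99 ± 0.19 in URE-AML (adjusted p = 0.00107). *Aim2*, a sensor of cytosolic DNA, followed *Gsdmd* in its direction, at -2.39 ± 0.27 in Hox-URE (adjusted p = 5.10e-05) and -1.13 ± 0.26 in URE-AML (adjusted p = 0.00346). The sensor gene *Nlrp3* went the other way, with 3, 1 and 1 counts in Hox-WT but 30.6 to 53.9 CPM in Hox-URE and 13.5 to 26.6 CPM in URE-AML. *Card9*, an adaptor of lectin receptors, was at 36.6 to 44.0 CPM in Hox-WT, 0.692 to 0.911 CPM in Hox-URE and 46.3 to 59.1 CPM in URE-AML, and was called lower in Hox-URE (-5.60 ± 0.17, adjusted p = 8.88e-09). The cytokine substrates of caspase-1 were nearly absent, with *Il18* at 0 counts in all 9 libraries and *Il1b* at 0.257 CPM at most.

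Among the initiators of apoptosis, *Casp8* (ENSMUSG00000026029, chr1:58795374-58847503, + strand), the protease of the death receptor complex, had the highest level per length of the 8 genes in every line. It stood at 75.1, 87.0 and 84.3 CPM in Hox-WT, 88.4, 102 and 92.2 CPM in Hox-URE, and 93.9, 109 and 101 CPM in URE-AML. Both UREd/d lines lay above all Hox-WT libraries and overlapped each other. The differences were small, at 0.20 ± 0.10 in Hox-URE (adjusted p = 0.111) and 0.30 ± 0.10 in URE-AML (adjusted p = 0.0214, 1.23-fold, interval 0.086 to 0.52), the latter past the p threshold but short of a 1.5-fold change.

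*Cflar*, which encodes the caspase-8-like inhibitor FLIP, was at 29.7 to 39.1 CPM in Hox-WT, 41.5 to 56.1 CPM in Hox-URE and 28.3 to 30.5 CPM in URE-AML. It was called lower in URE-AML than Hox-URE (-0.67 ± 0.14, adjusted p = 0.00240), but without Hox-URE library 1 the difference was -0.53, short of the fold threshold, as it was with scaling by library size only (-0.57). The log2 ratio of *Casp8* to *Cflar* within a library was 1.28, 1.16 and 1.51 in Hox-WT, 0.66, 1.30 and 1.09 in Hox-URE, and 1.73, 1.84 and 1.77 in URE-AML. The 3 URE-AML libraries had the highest ratios of the 9, and those of Hox-WT and Hox-URE overlapped.

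Of 8 genes for death receptors and adaptors, 3 were called against Hox-WT in Hox-URE (1 higher, 2 lower) and 3 in URE-AML (2 higher, 1 lower). Between the UREd/d lines 3 were called, 2 of them higher in URE-AML and 1 lower. *Fas*, a death receptor gene, was at 0.415 to 1.01 CPM in Hox-WT, 0.473 to 1.95 CPM in Hox-URE and 11.8 to 11.9 CPM in URE-AML (4.03 ± 0.47 against Hox-WT, adjusted p = 3.96e-05). *Tnfrsf10b*, the TRAIL receptor, was at 1.42 to 1.64 CPM in Hox-WT, 0.036 to 0.166 CPM in Hox-URE and 7.04 to 11.6 CPM in URE-AML. It was called lower in Hox-URE (-4.09 ± 0.46, adjusted p = 4.52e-05) and higher in URE-AML (2.54 ± 0.31, adjusted p = 5.37e-05). The adaptor gene *Fadd*, which recruits caspase-8, was not called in any comparison, with values of 24.1 to 37.1 CPM over the 9 libraries. *Ripk3*, the necroptosis kinase that caspase-8 restrains, was called lower in both UREd/d lines, at -1.32 ± 0.20 in Hox-URE (adjusted p = 0.000353) and -0.99 ± 0.20 in URE-AML (adjusted p = 0.00161). *Ripk1*, its partner kinase, was called higher in Hox-URE (0.86 ± 0.10, adjusted p = 5.53e-05).

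*Casp2* (ENSMUSG00000029863, chr6:42264985-42282508, + strand), the PIDDosome caspase, was at 33.1, 38.4 and 39.6 CPM in Hox-WT, 20.3, 30.1 and 35.7 CPM in Hox-URE, and 32.4, 30.5 and 34.4 CPM in URE-AML. The lines overlapped in every comparison, and Hox-URE spread the widest. The log2 fold change was -0.37 ± 0.18 in Hox-URE (adjusted p = 0.108, interval -0.77 to 0.029) and -0.19 ± 0.18 in URE-AML (adjusted p = 0.384, interval -0.59 to 0.21). The Hox-URE value was -0.18 without Hox-URE library 1 (adjusted p = 0.232) and -0.57 without Hox-URE library 3 (adjusted p = 0.0213, short of 1.5-fold). *Cradd*, the adaptor that carries caspase-2 into the PIDDosome, was called lower in URE-AML than Hox-URE (-0.88 ± 0.18, adjusted p = 0.00223), and *Pidd1*, its scaffold, was not called in any comparison. A small nucleolar RNA gene, *Gm25108*, lies within *Casp2* on the same strand, so reads of the pair may not be fully separated. The same holds for *Casp8* and *Gm37760*, a gene model on its strand that awaits experimental evidence.

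*Apaf1* (ENSMUSG00000019979, chr10:90989311-91082770, − strand), the apoptosome scaffold, was at 55.3, 65.0 and 58.7 CPM in Hox-WT, 57.2, 59.7 and 52.9 CPM in Hox-URE, and 44.2, 60.1 and 53.7 CPM in URE-AML. The lines overlapped throughout. Its log2 fold change was -0.08 ± 0.12 in Hox-URE (adjusted p = 0.631, interval -0.35 to 0.20) and -0.18 ± 0.12 in URE-AML (adjusted p = 0.232, interval -0.45 to 0.092), so both intervals lay inside a 1.5-fold change.

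*Casp9* (ENSMUSG00000028914, chr4:141793612-141815976, + strand), the initiator that Apaf1 activates, had lower values in both UREd/d lines, by small amounts. It was at 16.0, 19.7 and 18.9 CPM in Hox-WT, 13.9, 15.9 and 14.0 CPM in Hox-URE, and 11.8, 14.7 and 14.2 CPM in URE-AML. No library of either UREd/d line reached the lowest Hox-WT library. The log2 fold change was -0.32 ± 0.13 in Hox-URE (adjusted p = 0.0682) and -0.42 ± 0.13 in URE-AML (adjusted p = 0.0197, 1.34-fold, interval -0.72 to -0.13), neither of which met both thresholds. *Cela2a* and *Ctrc*, which overlap *Casp9* on the opposite strand, had 0 counts in all libraries.

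Of the mitochondrial genes *Cycs* (cytochrome c), *Diablo*, *Htra2*, *Endog* and *Aifm1*, 0 of 5 were called against Hox-WT in either UREd/d line. Without Hox-WT library 2, 1 was called in each, *Htra2* as lower in Hox-URE (-0.59) and *Cycs* as lower in URE-AML (-0.61), and the same calls arose without Hox-URE library 1 (-0.59) and without URE-AML library 1 (-0.61). Scaling by library size only also gave the *Htra2* call (-0.65). *Htra2*, a mitochondrial protease that relieves inhibition by Xiap, was at 141 to 154 CPM in Hox-WT, 99.0 to 106 CPM in Hox-URE and 177 to 199 CPM in URE-AML. The 3 lines did not overlap, and it was called higher in URE-AML than Hox-URE (0.89 ± 0.08, adjusted p = 7.45e-06).

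*Casp6* (ENSMUSG00000027997, chr3:129901425-129914103, + strand), an effector caspase that cuts lamin A, was the 1 gene of the 8 called lower in both UREd/d lines. It was at 13.4, 18.2 and 17.6 CPM in Hox-WT, 2.66, 4.97 and 5.92 CPM in Hox-URE, and 5.01, 7.08 and 7.59 CPM in URE-AML. Every library of the UREd/d lines lay below every Hox-WT library, and these lines overlapped each other. It was 3.66-fold lower in Hox-URE (-1.87 ± 0.28, adjusted p = 0.000349) and 2.5-fold lower in URE-AML (-1.32 ± 0.28, adjusted p = 0.00210). URE-AML and Hox-URE differed by 0.55 ± 0.29 (adjusted p = 0.126, interval -0.089 to 1.18), but without Hox-URE library 3 the difference was called, at 0.78 (adjusted p = 0.0490), and without Hox-URE library 1 it was 0.27 (adjusted p = 0.334). Lymphoid markers, led by *Nkg7*, also had their highest sum in Hox-WT (26.3 to 46.4 CPM over 6 genes, beside 8.63 to 13.9 CPM in Hox-URE and 6.30 to 24.1 CPM in URE-AML), with 2 of 3 tested called lower in both UREd/d lines and *Cd3e* at 0 in all libraries. The other tested one, *Cd79a*, was called higher for Hox-URE versus Hox-WT (3.50 ± 0.56, adjusted p = 0.000475). Of the 7 monocyte and macrophage markers, *Adgre1*, *Csf1r* and *Ly86* were also called lower in both UREd/d lines. *Adgre1* was at 270 to 280 CPM in Hox-WT, 0.218 to 2.66 CPM in Hox-URE and 1.63 to 7.79 CPM in URE-AML. *Csf1r* and *Ly86* were low in Hox-WT too, with 29 counts at most. None of the others was called lower in both lines, *Ccr2* being called higher in Hox-URE and *Cd14* higher in URE-AML. The summed list was highest in Hox-URE (846 to 946 CPM, beside 348 to 380 in Hox-WT and 123 to 332 in URE-AML). The part of these markers in the result on *Casp6* was not tested.

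*Xiap* (ENSMUSG00000025860, chrX:42059679-42109656, + strand), the inhibitor of caspase-9 and some effector caspases, was at 38.1, 42.3 and 30.8 CPM in Hox-WT, 40.6, 42.7 and 32.4 CPM in Hox-URE, and 42.2, 47.2 and 39.6 CPM in URE-AML. The lines overlapped in every comparison. The log2 fold change was 0.06 ± 0.15 in Hox-URE (adjusted p = 0.760, interval -0.27 to 0.38) and 0.22 ± 0.15 in URE-AML (adjusted p = 0.232, interval -0.11 to 0.54), so both intervals lay inside a 1.5-fold change. The gene is X-linked, and Hox-URE expressed the Y-linked gene *Ddx3y* (33.0 to 47.9 CPM) with *Xist* at 0 counts, whereas the other lines had 0 counts of *Ddx3y* and expressed *Xist*. The sex of the mouse and the genotype cannot be told apart between Hox-WT and Hox-URE.

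Between the UREd/d lines, *Casp2*, *Casp8*, *Casp9*, *Apaf1* and *Xiap* had log2 fold changes (URE-AML versus Hox-URE) of 0.18, 0.10, -0.11, -0.10 and 0.16. Each of these intervals lay inside a 1.5-fold change, the widest being that of *Casp2* (-0.22 to 0.58). *Casp4* stood at -0.80 ± 0.53 (adjusted p = 0.227, interval -1.98 to 0.39), an interval that passed 1.5-fold on the lower side. Without URE-AML library 1 it was -0.32, and over the libraries left out it ran from -1.19 to that value. The libraries of these 6 genes overlapped between the UREd/d lines.

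Of 9 genes for other inhibitors of apoptosis and their antagonists, 8 were tested, of which 4 were called against Hox-WT in Hox-URE (1 higher, 3 lower) and 4 in URE-AML, all higher. Between the UREd/d lines 3 were called, all higher in URE-AML. *Xaf1*, which encodes an antagonist of Xiap, was at 1.28 to 1.39 CPM in Hox-WT, 0.409 to 0.828 CPM in Hox-URE and 6.10 to 9.74 CPM in URE-AML. It was called higher in URE-AML than in Hox-WT (2.61 ± 0.29, adjusted p = 2.82e-05). Its call as lower in Hox-URE (-0.96 ± 0.31, adjusted p = 0.0256) was lost without Hox-WT library 1 (adjusted p = 0.0616), Hox-URE library 3 (0.0732) or Hox-WT library 2, where it lay just past the threshold, and in the test against 1.5-fold (0.158). *Birc5*, the mitotic protein survivin, was called higher in URE-AML than in Hox-WT (0.65 ± 0.09, adjusted p = 0.000181). The *Naip* genes, 3 of which were called in some comparison, are near-identical copies whose reads may be split wrongly.

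**Figure D3:**
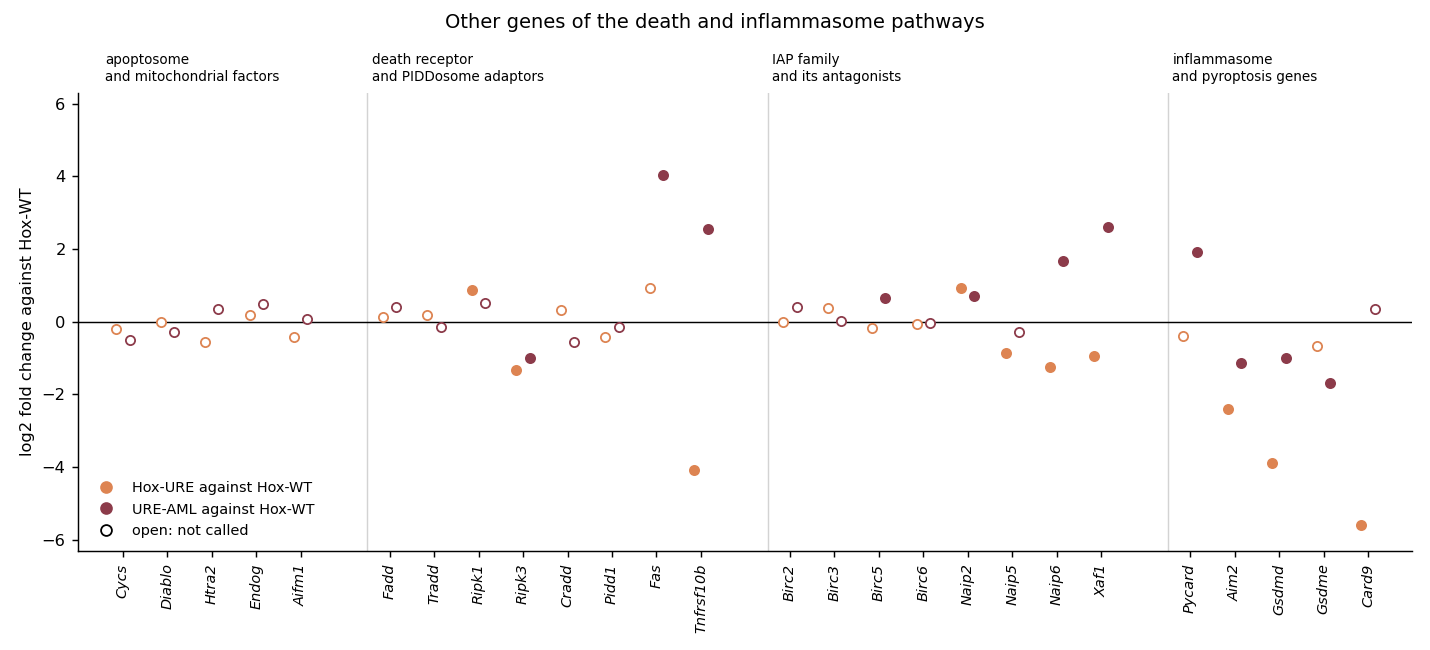
Log2 fold change against Hox-WT of other listed genes in 4 lists; filled points were called, and tested genes with at most 3 counts in every library of some line (*Nlrp3*, *Nlrc4*, *Nlrp1a*, *Nlrp1b*, *Mefv*) are not drawn. The apoptosome and mitochondrial genes lie near 0 with open points, while genes of the death receptor and inflammasome lists reach 4.03 (*Fas* in URE-AML) and -5.60 (*Card9* in Hox-URE).

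Ratios between partners within a library do not depend on library scaling and were compared between lines only, with no test. The log2 ratio of *Casp9* to *Xiap* was -1.25, -1.10 and -0.70 in Hox-WT, -1.54, -1.43 and -1.21 in Hox-URE, and -1.84, -1.68 and -1.48 in URE-AML. All URE-AML ratios lay below those of Hox-WT, and Hox-URE overlapped both. The log2 ratio of *Apaf1* to *Xiap* was 0.70 ± 0.21 (SD, n = 3) in Hox-WT, 0.56 ± 0.13 in Hox-URE and, as its lowest mean, 0.28 ± 0.19 in URE-AML, where its 3 libraries lay below the lowest of either progenitor line (0.44 at most, beside 0.48). The log2 ratio of *Casp1* to *Casp4* was 1.20 to 1.86 in Hox-URE, 3.16 to 4.02 in Hox-WT and 4.48 to 7.42 in URE-AML, and its highest value came from the library with 7 *Casp4* counts. The lines did not overlap in this ratio.

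**Figure D4:**
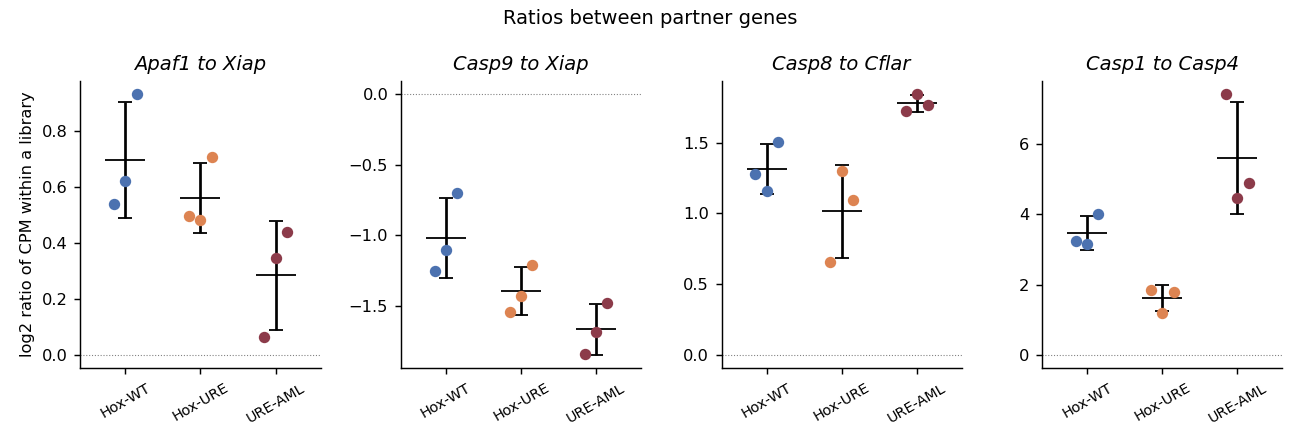
Log2 ratio of CPM of 2 genes within each library, with mean and SD of the 3 libraries of a line. *Casp8* to *Cflar* and *Casp1* to *Casp4* are highest in URE-AML, and both ratios to *Xiap* are lowest there.

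Levels were compared between genes as CPM per kilobase of annotated exon. *Casp8* led in every line, at 35.0 ± 2.70 (SD, n = 3) in URE-AML, 32.6 ± 2.45 in Hox-URE and 28.4 ± 2.16 in Hox-WT. *Casp4* was last in every line, at 0.318, 0.551 and 0.346 in the same order, although in Hox-URE its libraries overlapped those of *Casp6*. In Hox-WT the order was *Casp8*, *Casp1* (9.31), *Apaf1* (6.61), *Casp2* (5.25), *Xiap* (3.91), *Casp9* (3.50), *Casp6* (2.94) and *Casp4*, in which *Xiap* overlapped *Casp9* and *Casp9* overlapped *Casp6*. In Hox-URE *Casp1* (4.18) came after *Apaf1* (6.27) and overlapped *Xiap* (4.07), which overlapped *Casp2* (4.07), and *Casp2* overlapped *Casp9* (2.81). In URE-AML *Casp1* came second at 29.5 ± 3.11, close below *Casp8* and far above *Apaf1* at 5.83, and *Casp2* (4.60) overlapped *Xiap* (4.54). With the length of the longest transcript in place of all exons, a choice made after seeing the data, *Casp8* stayed first and *Casp4* last in each line, while *Casp2* moved to rank 2 in Hox-WT and rank 3 in the others.

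Genes within 250 kb give the setting of a member and are described for *Casp6*, *Casp8* and, for 1 neighbour, *Apaf1*. Some tested neighbours of *Casp2* and of *Casp9* were called in URE-AML versus Hox-WT, in both directions, and none in Hox-URE versus Hox-WT. Those of *Xiap* were not called in any comparison. Next to *Casp6*, *Mcub* (0.857 kb away), a subunit of the mitochondrial calcium channel, had 269 to 495 counts in Hox-WT, 6 to 18 counts in Hox-URE and 1, 0 and 0 counts in URE-AML. It was called lower in both UREd/d lines (-4.55 in Hox-URE, adjusted p = 1.95e-05, and in URE-AML adjusted p = 1.71e-06, too few counts for a fold). *Pla2g12a* (5.60 kb away), a phospholipase gene, was called lower in Hox-URE (-1.39, adjusted p = 5.34e-05) but higher in URE-AML (0.93, adjusted p = 0.000494). *Sec24b* (68.7 kb away) was called lower in Hox-URE (-0.77, adjusted p = 4.95e-05), so 3 of the 4 tested neighbours of *Casp6* were called lower in Hox-URE, and *Gar1* was not called. Around *Casp8*, *Stradb*, *Trak2*, *Ndufb3* and *Fam126b* were called higher in URE-AML than in Hox-WT, by 0.89, 0.87, 0.66 (0.58 and not called without URE-AML library 3) and 0.94, and *Cflar*, the nearest at 36.5 kb, was not (-0.17, adjusted p = 0.323). *Stradb* was also called higher for Hox-URE versus Hox-WT (0.60, adjusted p = 0.0195), a call lost without Hox-WT library 3 (0.39) or Hox-URE library 2 (0.54) and with scaling by library size only (0.49) or upper quartiles (0.57). *Ikbip*, 0.170 kb from *Apaf1*, was called lower in URE-AML than Hox-WT (-0.78, adjusted p = 0.00521) although *Apaf1* was not called. Over whole chromosomes that carry the 8 genes, the median log2 fold change was between -0.09 and 0.13 in the 3 comparisons.

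**Figure D5:**
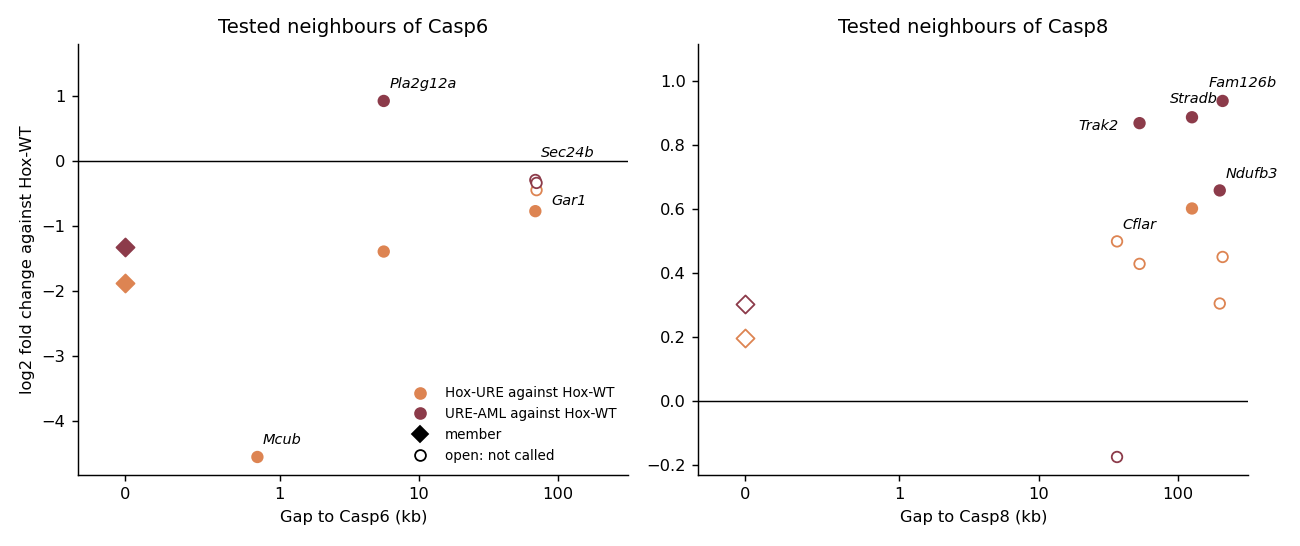
Log2 fold change against Hox-WT of *Casp6* and *Casp8* (diamonds at 0) and of their tested protein-coding neighbours (circles) by the gap between genes, on an axis that is linear up to 1 kb and logarithmic beyond; filled points were called. *Mcub* in URE-AML, with 1 count in all, is not drawn, and *Pla2g12a* lies below 0 in Hox-URE and at 0.93 in URE-AML.

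The tested gene outside the 8 that was most like each of 7 members over the 9 libraries, by Pearson's r of log2 CPM among 8607 genes with a mean of at least 10 CPM, was *Iqce* for *Casp1* (r = 0.997), *Ssb* for *Casp2* (0.973), *Ppm1m* for *Casp4* (0.971), *Gm42860* for *Casp8* (0.970), *Ass1* for *Casp9* (0.952), *Zfpl1* for *Apaf1* (0.952) and *Reep4* for *Xiap* (0.929). The libraries fall into 3 lines, so these values describe likeness only.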

How the data were processed

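The samples were 9 stranded poly-A libraries of 3 mouse lines, grouped by the line in their labels. The authors ran Salmon on GRCm38 and tximport, and the deposited values are estimated counts per gene, given as whole numbers with totals that differ between libraries. The transcript release and any length scaling are not given in the sources used here, so transcript use could alter a count.

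Total counts ran from 20331064 to 28588718 and TMM factors from 0.938 to 1.04, with 3 counts equal to 0.104 to 0.153 CPM (counting error only). After filterByExpr (minimum count 10), 13082 of 54347 genes entered an edgeR 4.0.16 quasi-likelihood fit (R 4.3.3) of line over all libraries, with two-sided F tests and Benjamini-Hochberg adjustment over those genes. Calls used the study's limits, an adjusted p below 0.05 and more than 1.5-fold. SE is the size of the log2 fold change over the root of F, intervals are 95%, and the fit was tested on simulated data.

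The 8 genes, the pathway and marker lists and the tests were chosen with earlier results of these data known. Names were open to the 8, listed genes called in some comparison or never above 10 counts, tested neighbours within 250 kb, the most alike gene of each and genes that check the lines. *Fadd*, *Pidd1*, *Cycs*, *Diablo*, *Endog*, *Aifm1*, *Dffa*, *Dffb*, *Casp12*, *Cela2a*, *Ctrc*, *Gm25108* and *Gm37760* are named outside that rule. Some listed genes and the most alike gene of *Casp6* are not reported here. Coordinates and exons came from GENCODE M21 (54094 identifiers found) and promoters from RefSeq, which held all 8. Alternatives were 3 other scalings, 2 other filters, only the 6 libraries compared, a replicate block, DESeq2 1.42.0, no fold threshold, a test against 1.5-fold and leaving out each library, and longest transcripts were added after seeing the data. Figures used matplotlib 3.10.9.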

Additional observations from a re-analysis of the deposited data

How the results depend on the processing

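*Casp1* and *Casp6* kept direction and call against Hox-WT under every alternative run. Of 429 repeats of the 24 log2 fold changes of the 8 genes, 419 kept direction and call, 1 gained a call and 9 turned in sign, none of the 9 past the threshold. Scaling by library size only shifted the log2 fold changes of all genes by a median of -0.11 for Hox-URE versus Hox-WT, where *Xiap* turned to -0.048, and by 0.11 between the UREd/d lines, where *Casp9* turned to 0.0046 and *Apaf1* to 0.0057. With 1 library left out, *Xiap* in Hox-URE versus Hox-WT was -0.072 to 0.16 (-0.072 without Hox-WT library 3, -0.031 without Hox-URE library 2), and *Casp4* in URE-AML versus Hox-WT was -0.53 to 0.34 (0.040 without Hox-WT library 2, 0.34 without URE-AML library 1). Between the UREd/d lines *Casp2* was -0.024 (without Hox-URE library 1) to 0.36 and *Apaf1* -0.21 to 0.0092 (without URE-AML library 1). The number called among the 8 was 2 against Hox-WT for either UREd/d line whichever library was left out, and 1 to 2 between the UREd/d lines, *Casp6* being added without Hox-URE library 3. Without the fold threshold 4 were called in URE-AML against Hox-WT, *Casp8* (higher) and *Casp9* (lower) being added. Over libraries left out the adjusted p (edgeR) of that *Casp8* difference was 0.0188 to 0.0857 and of *Casp9* 0.0136 to 0.0724, and that of *Casp9* in Hox-URE versus Hox-WT 0.0417 to 0.192. Requiring at least 10 counts in every library left 3200 (Hox-URE) and 3602 (URE-AML) called genes against Hox-WT and 3553 between the UREd/d lines because fewer were tested, and put *Casp4* aside. Other named genes kept direction and call in 1703 of 1761 repeats, gained a call in 31 and lost it in 27. Tested against 1.5-fold, the calls of *Birc5*, *Stradb*, *Ndufb3*, *Fam126b* and *Ikbip* in URE-AML versus Hox-WT, of *Xaf1* and *Stradb* in Hox-URE versus Hox-WT, and of *Cflar* and *Cradd* between the UREd/d lines were lost. The lines share replicate numbers, but deviations of same-numbered libraries correlated at 0.0995 to 0.27 for the progenitor lines and 0.0100 to 0.092 otherwise. Not every pair was over 0.1, so a pairing was not established. All 9 were positive, however, and 8 of 9 libraries correlated best with their own number. The paper states that experiments needing several days had every condition on each day. It does not say whether these libraries were such a case. With the replicate block 4908 and 5679 genes were called against Hox-WT and 5584 between the UREd/d lines, and 2, 2 and 1 of the 8. The block took the adjusted p (edgeR) below 0.05, all short of 1.5-fold, for *Casp2* (0.0442), *Casp8* (0.0239) and *Casp9* (0.0283) in Hox-URE versus Hox-WT, *Xiap* in URE-AML versus Hox-WT (0.0414) and *Casp6* between the UREd/d lines (0.0178, 0.58). Depth limits *Casp4* most among the 8.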

Other observations

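Of 8 listed caspase substrates and nucleases, 2 were called against Hox-WT in each UREd/d line, 1 higher and 1 lower. Between the UREd/d lines 3 were called, 2 of them higher in URE-AML and 1 lower. *Lmna*, which encodes lamin A, the substrate that caspase-6 cuts, was at 0.785 to 1.14 CPM in Hox-WT, 3.86 to 13.6 CPM in Hox-URE and 24.4 to 29.2 CPM in URE-AML. It was called higher in both UREd/d lines (3.34 ± 0.44, adjusted p = 0.000127, and 4.81 ± 0.44, adjusted p = 7.45e-06, edgeR), in which *Casp6* was called lower. *Lmnb1*, the lamin B1 gene, was called lower in Hox-URE alone of the comparisons with Hox-WT (-1.25 ± 0.10, adjusted p = 5.68e-06; in URE-AML -0.24 ± 0.10, adjusted p = 0.0702). *Parp1*, a DNA repair enzyme that effector caspases cut, was at 278 to 362 CPM in Hox-WT, 203 to 289 CPM in Hox-URE and 125 to 137 CPM in URE-AML, and was called lower in URE-AML (-1.29 ± 0.14, adjusted p = 2.68e-05). The nuclease genes *Dffa* and *Dffb* were not called in any comparison.

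Of 8 listed interferon-stimulated genes, 6 were tested, of which 1 was called against Hox-WT in Hox-URE, as higher. In URE-AML 3 were called higher and 1 lower against Hox-WT, and likewise 3 and 1 against Hox-URE. *Irf1*, an interferon-induced transcription factor gene, was at 17.6 to 22.8 CPM in Hox-WT, 12.9 to 16.3 CPM in Hox-URE and 24.5 to 30.5 CPM in URE-AML. The 3 lines did not overlap and stood in the order of *Casp1*, and *Irf1* was called higher in URE-AML than Hox-URE (0.99 ± 0.15, adjusted p = 0.000267) and in neither line against Hox-WT, where it was called without Hox-URE library 3 (-0.59) in Hox-URE and without Hox-WT library 3 (0.64) or URE-AML library 2 (0.61) in URE-AML. *Isg15*, an early marker of interferon signalling, was at 0.606 to 1.89 CPM in URE-AML and at most 0.535 CPM elsewhere. It was called higher in URE-AML than in Hox-WT (2.03 ± 0.56, adjusted p = 0.0105), a call lost without Hox-WT library 3 (adjusted p = 0.0502), and than in Hox-URE (2.83 ± 0.61, adjusted p = 0.00267). Basophil and mast cell markers had their sums in the reverse order of *Casp1*, with summed levels of 31.4 to 62.7 CPM in URE-AML, 483 to 838 in Hox-WT and 1612 to 5889 in Hox-URE. Relative to Hox-WT, Hox-URE had 4 of the 5 tested called higher and 0 lower, and all 5 were called lower in URE-AML than in Hox-URE. In URE-AML versus Hox-WT 3 were called lower, *Prss34* was not called and *Mcpt8*, a basophil protease gene, was called higher (1.92 ± 0.46, adjusted p = 0.00449). The part of these markers in the results on *Casp1* was not tested.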
